A study of Mus musculus with 12 samples.

Results

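The genes described here are MAP3 kinases and members of the JNK pathway. Map3k5, Map3k7, Map3k8 and Map3k14 encode the MAP3 kinases ASK1, TAK1, TPL2 and NIK. The others are the TAK1 partners Tab1 and Tab2, the JNK kinases Map2k4 and Map2k7, and Mapk8 and Mapk9, which encode JNK1 and JNK2. Members were taken as the probe sets whose single gene symbol in the platform annotation was 1 of these 10 names. That gave 25 of the 45101 probe sets on the array, for 9 of the 10 genes out of 18194 named genes in all, and 22 of the 25 passed the filter on low signal. Map2k7 had no probe set of its own in the annotation used and was not analysed here. The cells were dendritic cells from lymph nodes of C57BL/6 mice, labelled p38a-knockout (KO) or wild type (WT), kept in culture and given Pam3CSK4, a synthetic lipopeptide that activates TLR2, at a labelled dose of 1 mg/ml. KO cultures were sampled at 0, 2 and 4 h, and so were WT cultures, with 2 arrays (A and B) for each of the 6 groups. The 0 h arrays were taken from their time as cells without ligand, though the labels give the same dose for all arrays. No arrays without ligand at 2 or 4 h were analysed here, so ligand and time in culture cannot be told apart. The sources used here do not give how the knockout was driven, whether animals were pooled or whether arrays A and B came from separate cultures.

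MAP3 kinases receive stress and receptor signals and phosphorylate MAP2 kinases, which in turn activate JNK, p38 or ERK. Below Toll-like receptors, TAK1 with its adaptors TAB1 and TAB2 feeds both the IκB kinases and the MAP2 kinases, MKK4 (Map2k4) and MKK7 (Map2k7) activate JNK, and TPL2 is the MAP3 kinase that drives ERK after it is freed from the NF-κB precursor p105. NIK drives the non-canonical NF-κB pathway, is kept low by a TRAF2, TRAF3 and cIAP complex and acts after CD40 and related receptors, and ASK1 responds to oxidative stress while thioredoxin holds it inactive. Most of this control acts on the proteins, whereas the arrays read only messenger RNA.

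The promoter sequences below belong to Map3k14, Map3k5 and Map3k7. The transcript of Map3k14 changed most with time, and Map3k5 differed between genotype labels by its brightest probe set only. Of the members searched, Map3k7 was the one with a κB match at its first listed start. The sequences come from RefSeq on the GRCm38.p6 build and run 5′ to 3′ in the direction of the gene. They span 250 bases before to 50 bases after the annotated start. Of the 10 members 8 were matched in that source. Map3k8 and Tab1 had no entry there, so their promoters were not searched for any motif. The Map3k14 promoter lies at chr11:103267352-103267651 on the minus strand, and its capitals mark 2 matches to CCAAT, which begin 201 and 151 bases upstream of the start, the second read on the opposite strand. The Map3k5 promoter, at chr10:19934276-19934575 on the plus strand, held no match to the motifs searched. The Map3k7 promoter lies at chr4:31963857-31964156 on the plus strand, and its capitals mark a match to the κB consensus that begins 92 bases upstream.
Map3k14: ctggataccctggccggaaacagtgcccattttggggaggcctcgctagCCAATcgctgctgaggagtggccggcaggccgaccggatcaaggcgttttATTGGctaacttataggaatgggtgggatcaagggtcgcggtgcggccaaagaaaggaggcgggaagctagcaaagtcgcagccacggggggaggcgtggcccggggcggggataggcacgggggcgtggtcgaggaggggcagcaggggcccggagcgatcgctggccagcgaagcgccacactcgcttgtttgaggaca
Map3k5: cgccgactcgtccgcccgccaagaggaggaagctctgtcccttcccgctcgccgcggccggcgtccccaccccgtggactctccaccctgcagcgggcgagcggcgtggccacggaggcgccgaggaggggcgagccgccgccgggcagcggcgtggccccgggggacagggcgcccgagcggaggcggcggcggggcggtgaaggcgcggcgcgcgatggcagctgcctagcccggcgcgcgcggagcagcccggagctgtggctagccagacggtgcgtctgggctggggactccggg
Map3k7: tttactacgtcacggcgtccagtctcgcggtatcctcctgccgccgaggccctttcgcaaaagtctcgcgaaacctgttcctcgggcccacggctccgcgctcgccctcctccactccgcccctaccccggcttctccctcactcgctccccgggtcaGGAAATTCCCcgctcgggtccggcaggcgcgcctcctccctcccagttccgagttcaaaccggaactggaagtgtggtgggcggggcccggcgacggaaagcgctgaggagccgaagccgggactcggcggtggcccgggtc
Searched on both strands, the κB consensus was present in 5.8% of 32851 promoters of the same length, TGANTCA (AP-1) in 7.81%, TGACGTCA (CRE) in 1.79% and CCAAT in 37.4%. The Map3k14 promoter was 65.0% G and C, that of Map3k5 79.7% and that of Map3k7 69.0%, against a median of 52.7% over all promoters. A match describes the letters in the window and nothing more.

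Array signals were quantile-normalized and are given below as log2(normalized signal + 16). Arrays of the same group correlated with r of 0.987 to 0.990 across the 12792 tested genes, and the best match outside the group reached 0.984 to 0.989, so the groups were close to one another. Mapk14, the targeted gene, was not lower on the arrays labelled KO: its brightest probe set averaged 8.37, 8.06 and 7.98 at 0, 2 and 4 h on KO arrays and 8.22, 7.60 and 7.66 on WT arrays. Averaged over the times it was called higher in KO cells (0.31, adjusted p = 0.0263), a call lost on the signals as deposited (0.13, adjusted p = 0.697). The 2 other Mapk14 probe sets above the filter were not called (0.29 and 0.03), and the rest lay below the filter and were not tested. The sources used here do not place the deleted part relative to that probe set, so genotype below means the label of the array. All 10 dendritic cell markers passed the filter, with summed normalized signals of 21701 to 23937 over all groups. Single markers moved within that range: averaged over the times 4 of them (Batf3, H2-Ab1, Itgax and Sirpa) were called higher and 1 (Ccr7) lower in KO cells, and 0 and 1 on the signals as deposited. Against 0 h, 2 of the 10 (Sirpa and Zbtb46) were called higher at 2 h in both genotypes. At that time 2 were called lower, Batf3 and Ccr7 in KO cells and Batf3 and Flt3 in WT cells. At 4 h 0 were called in KO cells, and 2 higher and 1 lower in WT cells. In RNA of a whole culture, fewer cells of a type and less RNA per cell cannot be told apart.

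Within the group of genes, 2 MAP3 kinases moved far and in opposite directions after Pam3CSK4 in both genotypes: Map3k14 fell 4.99-fold in KO cells and 4.50-fold in WT cells by 2 h, and Map3k8 rose 2.83-fold in KO cells and 3.76-fold in WT cells. The remaining changes were small. Mapk8 rose at 2 h in both genotypes, Tab2 rose at 4 h in both and Map3k5 rose at 2 h in WT cells. Map3k7, Tab1, Map2k4 and Mapk9 passed the test in no comparison of their main probe set. A call here is an adjusted p below 0.05 from limma, with Benjamini-Hochberg adjustment over all tested genes. Folds are of the normalized signal + 16, which understates those of the signal itself.

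In KO cells 3 of the 9 tested members changed by 2 h (2 higher, 1 lower), where 19.6% of all tested genes did, and 3 changed by 4 h (2 higher, 1 lower), where 18.1% did. In WT cells 5 of 9 changed by 2 h (4 higher, 1 lower), where 19.9% of all genes did, and 3 by 4 h (2 higher, 1 lower), where 18.2% did. The median change of the members was 0.09 at 2 h and 0.27 at 4 h in KO cells, and 0.30 and 0.07 in WT cells, while the medians over all tested genes lay between -0.06 and -0.02. The KO arrays of the later time did not overlap those of 0 h for 6 members at 2 h and 7 at 4 h, against 56.9% and 56.4% of all genes. The WT arrays did not overlap for 8 members at 2 h and 7 at 4 h, against 56.7% and 56.3%. From 2 to 4 h, 2 members were called in KO cells (1 higher, 1 lower), where 13.7% of all genes were, and 4 in WT cells (1 higher, 3 lower), where 11.1% were; arrays of these times did not overlap for 7 members in KO cells and 6 in WT cells, against 54.6% and 52.9% of all genes. With 9 genes tested, these shares are a description of the members. Markers of other cells moved with time as well: of the 8 macrophage markers 0 were called higher and 6 lower at 2 h in KO cells and 1 and 6 at 4 h, against 0 and 3, then 1 and 4, in WT cells. On the signals as deposited those counts were 0 and 7, then 0 and 3, in KO cells and 0 and 5, then 0 and 4, in WT cells. Otherwise at 2 h 2 B cell markers were called lower in WT cells. In KO cells Gzma (natural killer) was higher and in WT cells S100a8 (neutrophil), both calls lost on the signals as deposited. At 4 h, of 5 tested B cell markers 0 were called higher and 2 lower in KO cells, and 0 and 1 in WT cells, with Cd79b lower in both. Of 4 neutrophil markers 1 was higher and 0 lower in KO cells, and 2 and 0 in WT cells, with S100a8 higher in both. Of 7 T cell markers 0 were higher and 1 lower in KO cells, and 0 and 2 in WT cells, with Cd2 lower in both. Of 4 natural killer markers 1 (Ncr1) was higher and 0 lower in each genotype. Of 7 stromal and endothelial markers 0 were higher and 2 lower in KO cells, and 0 were called in WT cells. On the signals as deposited 0 T cell markers were called at 4 h in either genotype, though 5 were lower at 2 h in KO cells. There 1 neutrophil marker was higher at 4 h in each genotype, and 1 natural killer marker in KO cells only. The part of these markers' cells in the members' changes was not tested.

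The scale of the arrays mattered for the smaller calls. On the deposited signals, which shared no common scale, the median of all genes shifted by -0.41 in KO cells and -0.35 in WT cells at 2 h and by -0.20 and -0.16 at 4 h. The members called there split as 1 higher and 2 lower at 2 h in KO and in WT cells and as 1 higher and 1 lower at 4 h in both, with Map3k8 the higher one, Map3k14 among the lower ones, and at 2 h also Map2k4 in KO cells (-0.83, adjusted p = 0.011) and Tab1 in WT cells (-0.70, adjusted p = 0.0398). All calls on Tab2, Mapk8 and Map3k5 against 0 h were lost on that scale. Changes below are therefore relative to the bulk of the probe sets.

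**Figure D1:**
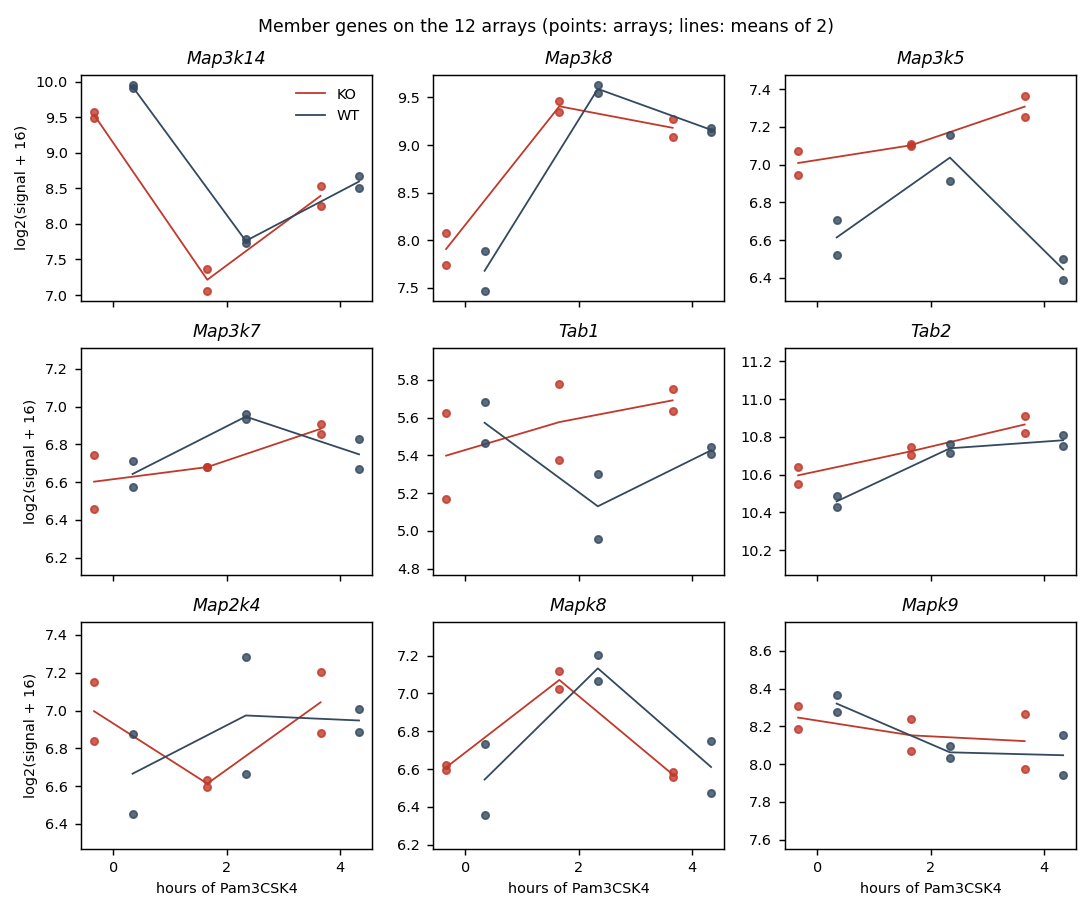
Level of each member's brightest probe set on the 12 arrays, in log2(normalized signal + 16) on the vertical axis, by time after Pam3CSK4 (0, 2 and 4 h) with KO arrays left of WT arrays; each point is 1 array and each line joins the group means. Map3k14 lies lowest at 2 h and Map3k8 lowest at 0 h in both genotypes, while no change of Mapk9, Tab1 or Map2k4 passed the test.

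Levels of Map3k14 (NIK) on the KO arrays A and B were 9.58 and 9.49 (0 h), 7.37 and 7.06 (2 h), and 8.26 and 8.53 (4 h). On the WT arrays they were 9.91 and 9.96 (0 h), 7.74 and 7.78 (2 h), and 8.51 and 8.68 (4 h). In both genotypes every 2 h array lay below every 4 h array, and every 4 h array below every 0 h array. The change by 2 h was -2.32 ± 0.11 (SE, adjusted p = 6.96e-10, limma) in KO cells and -2.17 ± 0.11 (adjusted p = 1.07e-09) in WT cells. At 4 h the level was still lower than at 0 h, by -1.14 in KO cells (adjusted p = 2.95e-06) and by -1.33 in WT cells (adjusted p = 4.58e-07). Between 2 and 4 h Map3k14 rose by 1.18 in KO cells (adjusted p = 6.44e-06) and by 0.83 in WT cells (adjusted p = 0.000196), so the low point of the 3 sampled times was 2 h. No array left out and no other setting tried, except a log2 change of at least 1 required for the WT change between 2 and 4 h, ended any of these calls.

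A second Map3k14 probe set followed the same course with smaller changes. It gave 8.06 and 8.15, 6.79 and 6.64, and 7.27 and 6.98 at 0, 2 and 4 h on KO arrays, and 8.68 and 8.65, 7.02 and 7.24, and 7.68 and 7.70 on WT arrays. The change by 2 h was -1.39 in KO cells (adjusted p = 2.58e-06) and -1.53 in WT cells (adjusted p = 7.46e-07), adjusted over the 27061 probe sets tested. By 4 h it was -0.98 in KO cells (adjusted p = 9.04e-05) and -0.98 in WT cells (adjusted p = 8.03e-05). Its partial recovery from 2 to 4 h was called in WT cells (0.56, adjusted p = 0.0136) and missed the threshold in KO cells (0.41, adjusted p = 0.0555).

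Map3k8 (TPL2), read by 1 probe set, moved the other way. Its levels on the KO arrays were 8.08 and 7.74 (0 h), 9.46 and 9.35 (2 h), and 9.28 and 9.09 (4 h). Those on the WT arrays were 7.89 and 7.47 (0 h), 9.55 and 9.63 (2 h), and 9.14 and 9.18 (4 h). All 8 stimulated arrays lay above all 4 arrays of 0 h. The rise by 2 h was 1.50 ± 0.13 (SE, adjusted p = 5.42e-07, limma) in KO cells and 1.91 ± 0.13 (adjusted p = 2.58e-08) in WT cells. By 4 h it was 1.27 in KO cells (adjusted p = 4.18e-06) and 1.48 in WT cells (adjusted p = 6.45e-07), and no alternative ended these 4 calls. From 2 to 4 h the level fell by 0.43 in WT cells (adjusted p = 0.0466), a call lost without any 1 of 6 arrays (both arrays of KO 2 h, WT 2 h and WT 4 h, highest adjusted p = 0.215) and under 6 other settings, among them no filter and a pseudocount of 1 (adjusted p from 0.0619 to 0.68). In KO cells that step was -0.23 (adjusted p = 0.289).

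Of the TAK1 complex, Map3k7 itself, the kinase, passed in no comparison through its brightest probe set. That set gave 6.75 and 6.46, 6.68 and 6.68, and 6.91 and 6.86 at 0, 2 and 4 h on KO arrays, and 6.57 and 6.71, 6.96 and 6.93, and 6.67 and 6.83 on WT arrays. The changes were 0.08 ± 0.13 at 2 h and 0.28 ± 0.13 at 4 h in KO cells (adjusted p = 0.74 and 0.169), and 0.30 and 0.10 in WT cells (adjusted p = 0.123 and 0.673). Their 95% intervals ran from -0.20 to 0.58, so a change of 1 on the log2 scale lies outside them. Of its 5 probe sets above the filter 1, the second brightest, was called, at 2 h in KO cells (0.53, adjusted p = 0.0454), where 13.1% of all tested probe sets were.

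Tab2, the adaptor that binds polyubiquitin chains, was higher after the ligand. Its brightest probe set gave 10.64 and 10.55, 10.75 and 10.70, and 10.82 and 10.91 at 0, 2 and 4 h on KO arrays, and 10.43 and 10.49, 10.76 and 10.72, and 10.75 and 10.81 on WT arrays. At 2 and 4 h every array lay above both 0 h arrays of its own genotype. It rose by 0.27 ± 0.06 at 4 h in KO cells (adjusted p = 0.00774) and by 0.32 at 4 h in WT cells (adjusted p = 0.00202), and in WT cells already by 0.28 at 2 h (adjusted p = 0.00552). In KO cells the 2 h value was 0.13 (adjusted p = 0.195). The second Tab2 probe set changed by 0.58 at 2 h and 0.64 at 4 h in WT cells (adjusted p = 0.0101 and 0.0058), and by 0.39 and 0.43 in KO cells (adjusted p = 0.0784 and 0.0555). Leaving out either KO 0 h B or KO 4 h B ended the KO call at 4 h (highest adjusted p = 0.0907), and leaving out WT 2 h A ended the WT call at 2 h (adjusted p = 0.055). Without a trend in the variance both of these calls were also lost (adjusted p = 0.0728 and 0.0575).

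Tab1, the adaptor that promotes TAK1 activation, ran from 4.96 to 5.78 over the 12 arrays, and 1 of its 2 probe sets was below the filter. Its changes were 0.18 ± 0.21 at 2 h and 0.29 at 4 h in KO cells, and -0.44 and -0.15 in WT cells, none past the threshold (adjusted p from 0.168 to 0.72). Tab1 was the member with the widest standard error, and its 95% interval at 2 h in KO cells ran from -0.27 to 0.62.

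Map3k5 (ASK1) passed the test against 0 h only in WT cells, at 2 h, though the difference between the genotypes' responses did not pass. On the KO arrays its brightest probe set read 7.07 and 6.94 (0 h), 7.11 and 7.10 (2 h), and 7.36 and 7.25 (4 h). On the WT arrays the same set read 6.70 and 6.52 (0 h), 7.16 and 6.92 (2 h), and 6.39 and 6.50 (4 h). WT arrays were thus high at 2 h only, whereas the KO arrays were highest at 4 h. In WT cells the level rose by 0.42 ± 0.13 by 2 h (adjusted p = 0.0273) and fell by 0.59 between 2 and 4 h (adjusted p = 0.00634). In KO cells the values were 0.09 at 2 h and 0.30 at 4 h (adjusted p = 0.665 and 0.128). Leaving out either WT 0 h B or WT 2 h A ended the WT rise (highest adjusted p = 0.224), as did trimmed-mean scaling (0.33, adjusted p = 0.0776) and a model of the 2 groups alone (adjusted p = 0.0717), and leaving out either WT 2 h A or WT 4 h A ended the WT fall (highest adjusted p = 0.0874). The second Map3k5 probe set changed by 0.39 at 2 h in WT cells (adjusted p = 0.129) and -0.35 from 2 to 4 h (adjusted p = 0.253).

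Mapk8 (JNK1) stood higher at 2 h than at the other times. Its brightest probe set gave 6.60 and 6.62, 7.12 and 7.02, and 6.59 and 6.56 at 0, 2 and 4 h on KO arrays, and 6.73 and 6.36, 7.06 and 7.20, and 6.48 and 6.75 on WT arrays. All 4 arrays of 2 h lay above the 8 others. The level rose by 0.46 ± 0.14 by 2 h in KO cells (adjusted p = 0.0334) and by 0.59 in WT cells (adjusted p = 0.00808), and fell by 0.50 between 2 and 4 h in KO cells (adjusted p = 0.0306) and by 0.52 in WT cells (adjusted p = 0.0284). Both KO calls were lost without any 1 of the 4 arrays compared (highest adjusted p = 0.151 and 0.143), and leaving out either WT 0 h B or WT 2 h B ended the WT rise (highest adjusted p = 0.118). Leaving out WT 2 h A, WT 2 h B or WT 4 h A, each alone, ended the WT fall (highest adjusted p = 0.242). The KO rise was also lost with trimmed-mean scaling (0.40, adjusted p = 0.0645), with no filter (adjusted p = 0.0604) and without a variance trend (adjusted p = 0.0528), and both falls with no filter, the mean of all probe sets or no trend. Of the 4 Mapk8 probe sets above the filter, 3 were called higher at 2 h in WT cells when each was tested on its own (by 0.43 to 0.69), where 13.7% of all probe sets were, and 0 were called at 2 h in KO cells.

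Mapk9 (JNK2) and Map2k4 (MKK4, a kinase of JNK and p38) passed the test in no comparison. Mapk9 ran from 7.94 to 8.37 over the 12 arrays, and its changes were -0.09 ± 0.11 at 2 h and -0.12 at 4 h in KO cells, and -0.26 and -0.27 in WT cells (adjusted p from 0.118 to 0.625). Map2k4 gave 7.15 and 6.84, 6.63 and 6.59, and 7.20 and 6.88 at 0, 2 and 4 h on KO arrays, and 6.88 and 6.45, 7.29 and 6.66, and 6.89 and 7.01 on WT arrays. Arrays A and B of WT 2 h lay farther apart than any of its group means lay from that of 0 h. The changes were -0.38 ± 0.19 at 2 h and 0.05 at 4 h in KO cells, and 0.31 and 0.28 in WT cells (adjusted p from 0.196 to 0.909).

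**Figure D2:**
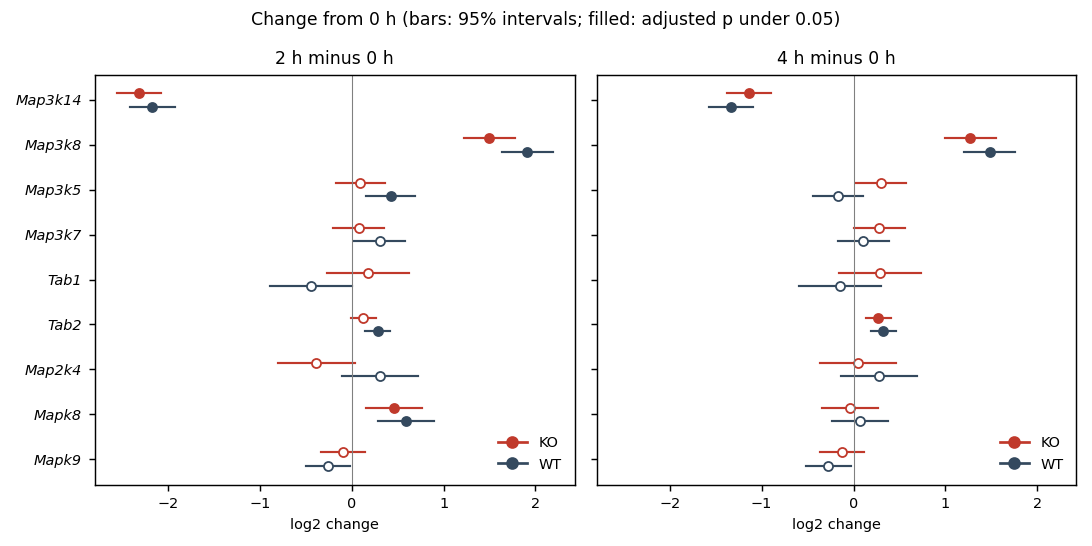
Change against 0 h at 2 h and 4 h for each of the 9 tested members (log2 scale, horizontal axis), with KO above WT for each gene and 95% intervals from the fit as bars. Map3k14 lies far below 0 and Map3k8 far above it in both genotypes; the other 7 members lie between -0.44 and 0.59.

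Few members differed between KO and WT cells at a single time. Map3k14 was lower on KO arrays at 2 h and Map3k5 was higher on KO arrays at 4 h. Averaged over the 3 times the same pair of genes was called, Map3k5 higher and Map3k14 lower in KO cells. Counted over the 9 tested members, 0 were called at 0 h, where 3.3% of all genes were (3 had an unadjusted p below 0.05), 1 at 2 h, where 2.3% were, 1 at 4 h, where 2.39% were, and 2 in the average over the times, where 10.5% were. The KO and WT arrays did not overlap for 3 members at 0 h, 5 at 2 h and 4 at 4 h, against 43.1%, 45% and 44.7% of all genes, and for 0 over all times, against 1.35%. Markers of macrophages moved with the genotype too: 7 of the 8 were called higher and 0 lower in KO cells averaged over the times, and 5 and 0 on the deposited scale. They summed to 4212 to 4314, 3041 to 3131 and 2796 to 2949 at 0, 2 and 4 h on KO arrays, against 2389 to 2449, 1795 to 1903 and 1503 to 1674 on WT arrays, in units of normalized signal, and none was at 0. Of the 5 tested B cell markers 2 were called higher and 0 lower in KO cells, and of the 7 stromal and endothelial markers 3 and 0, all 5 lost on the deposited scale. The part of these markers' cells in the genotype differences was not tested.

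Map3k14 averaged 9.53, 7.21 and 8.39 at 0, 2 and 4 h on KO arrays and 9.93, 7.76 and 8.60 on WT arrays. At 0 and 2 h both KO arrays lay below both WT arrays, and at 4 h KO 4 h B (8.53) lay above WT 4 h A (8.51). The KO minus WT difference was -0.40 ± 0.11 at 0 h (adjusted p = 0.0782), -0.55 at 2 h (adjusted p = 0.017) and -0.20 at 4 h (adjusted p = 0.477), and -0.38 ± 0.07 averaged over the times (adjusted p = 0.00122). Leaving out KO 2 h B, WT 2 h A or WT 2 h B, each alone, ended the call at 2 h (highest adjusted p = 0.202), and it was also lost on the deposited scale and without a variance trend (adjusted p = 0.266 and 0.114), while the averaged call held without any single array and with the other scalings. The second probe set placed its calls at other times: -0.56 at 0 h (adjusted p = 0.0342), -0.41 at 2 h (adjusted p = 0.139) and -0.56 at 4 h (adjusted p = 0.0471), with -0.51 averaged over the times (adjusted p = 0.000465). From high to low, the 6 group means of the brightest probe set ran WT 0 h, KO 0 h, WT 4 h, KO 4 h, WT 2 h and KO 2 h, and of the neighbours in that order only the pair at 4 h overlapped.

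Map3k5 averaged 7.01, 7.10 and 7.31 at 0, 2 and 4 h on KO arrays and 6.61, 7.04 and 6.45 on WT arrays. The KO pair lay above the WT pair at 0 and 4 h, and the pairs overlapped at 2 h. The KO minus WT difference was 0.39 ± 0.13 at 0 h (adjusted p = 0.124), 0.07 at 2 h (adjusted p = 0.861) and 0.86 at 4 h (adjusted p = 0.00142), a 1.82-fold difference of signal + 16 at 4 h. Averaged over the times it was 0.44 ± 0.07 (adjusted p = 0.000919). The call at 4 h and the averaged call held without any single array and were lost on the deposited scale (0.72 and 0.28, adjusted p = 0.374 and 0.325). The second Map3k5 probe set gave 0.25 at 4 h and 0.11 averaged over the times (adjusted p = 0.622 and 0.54), so the difference rests on 1 of the 2 probe sets of the gene.

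Map3k8 did not separate the genotypes at 4 h, where KO arrays averaged 9.18 and WT arrays 9.16 (difference 0.02, 95% interval -0.26 to 0.30). From high to low, its group means ran WT 2 h, KO 2 h, KO 4 h, WT 4 h, KO 0 h and WT 0 h. At 2 h both KO arrays lay below both WT arrays (difference -0.18, adjusted p = 0.561), and at 0 h the arrays overlapped (0.23, adjusted p = 0.471). For Mapk8 the probe sets disagreed. The brightest showed -0.06 at 2 h and -0.01 averaged over the times (adjusted p = 0.889 and 0.953), while the second gave 6.62 and 6.52 on KO 2 h arrays, against 7.07 and 7.27 on WT 2 h arrays. That second probe set was lower in KO cells by -0.60 at 2 h (adjusted p = 0.0389) and by -0.35 averaged over the times (adjusted p = 0.00971), tested among all probe sets. The other members had averaged differences between -0.06 and 0.18 (adjusted p from 0.295 to 0.936).

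**Figure D3:**
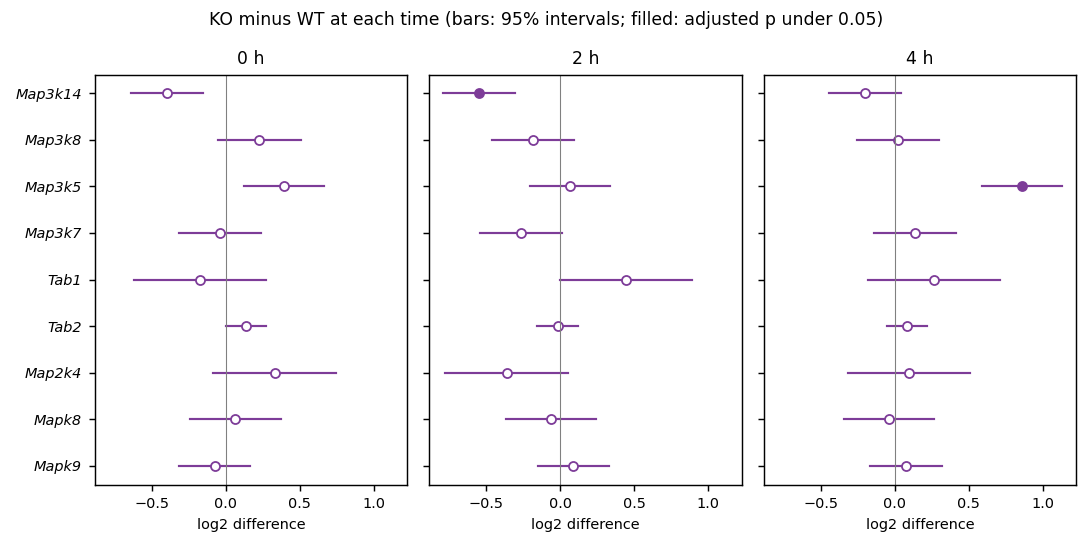
KO minus WT difference of each tested member at 0, 2 and 4 h, 1 panel per time (log2 scale on the horizontal axis, 95% intervals from the fit as bars, filled points at adjusted p under 0.05). Map3k14 lies below 0 and Map3k5 above 0 at each of the 3 times; the widest gap is that of Map3k5 at 4 h (0.86).

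Counted over the 22 member probe sets above the filter, 4 were called at 2 h in KO cells (2 higher, 2 lower), where 13.1% of all tested probe sets were, and 4 at 4 h (2 higher, 2 lower), where 11.7% were. In WT cells 9 were called at 2 h (7 higher, 2 lower), where 13.7% were, and 5 at 4 h (3 higher, 2 lower), where 12% were. Of those 9, 3 read Mapk8. Between genotypes 1 was called at 0 h (lower in KO cells), where 1.64% were, 2 at 2 h (both lower), where 1.21% were, and 2 at 4 h (1 higher, 1 lower), where 0.972% were. Averaged over the times 4 were called (1 higher, 3 lower in KO cells), where 7.33% were: both of Map3k14, 1 of Map3k5 and 1 of Mapk8. Probe sets of the same gene are repeated readings of it, so these counts are a description.

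**Figure D4:**
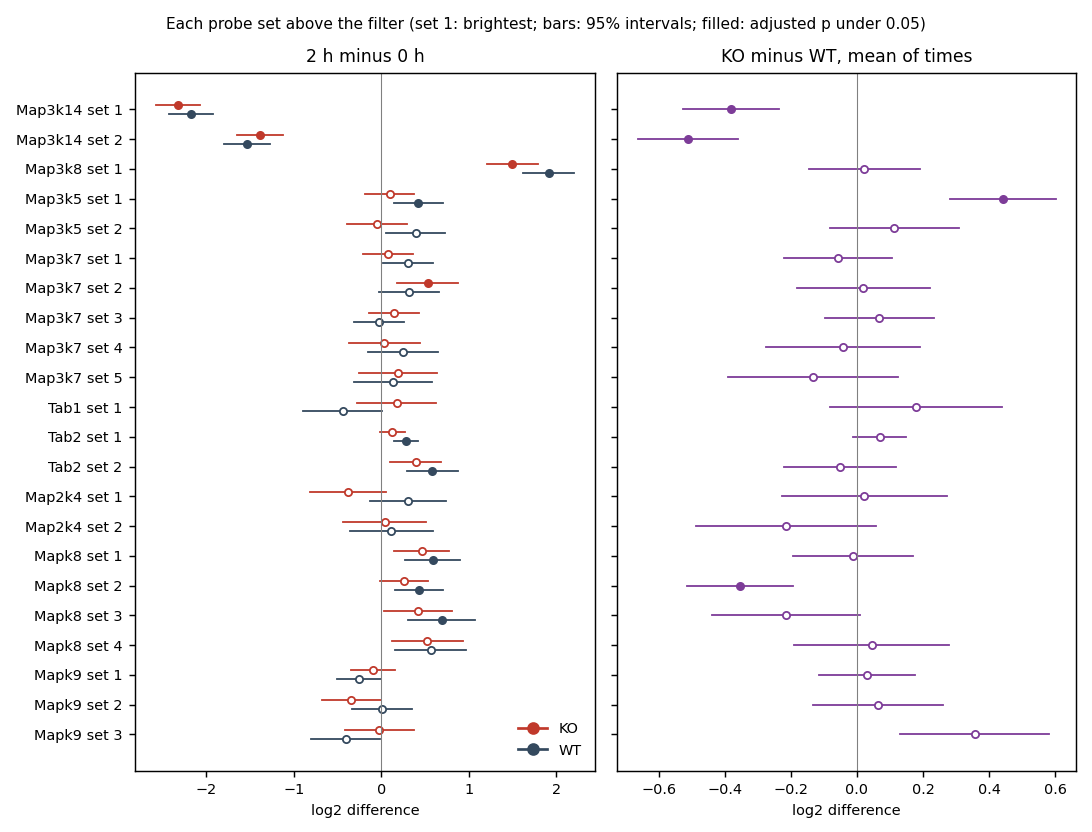
Log2 differences of the 22 member probe sets that passed the filter, numbered from the brightest of each gene: 2 h minus 0 h with KO above WT (left) and KO minus WT averaged over the times (right), with 95% intervals as bars and filled points at adjusted p under 0.05. Both Map3k14 probe sets lie below 0 in the averaged difference, whereas the 2 probe sets of Map3k5 and the 4 of Mapk8 differ among themselves.

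Whether the response to the ligand itself differed between genotypes was tested as the difference of the changes against 0 h, KO minus WT. Of the 9 members 0 were called by limma at 2 h, where 0.0313% of all genes were, and 0 at 4 h, where 0.0469% were. At an unadjusted p below 0.05 there were 2 members at 2 h and 1 at 4 h. The 2 at 2 h were Map2k4 (-0.69 ± 0.28, adjusted p = 0.811) and Map3k8 (-0.41 ± 0.19, adjusted p = 0.825), and the 1 at 4 h was Map3k5 (0.47 ± 0.18, adjusted p = 0.739). For Map3k14 the difference of the 2 h responses was -0.15, with a 95% interval of -0.49 to 0.19, and of the 4 h responses 0.20, with an interval of -0.15 to 0.54. A response that differed by 1 on the log2 scale between genotypes therefore lies outside the intervals for Map3k14.

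Genes that surround these kinases were counted from lists of the pathway. The shares of all tested genes called at 2 and 4 h, for all lists below, were 19.6% and 18.1% in KO cells and 19.9% and 18.2% in WT cells. The NIK control and non-canonical NF-κB list had 10 of 12 genes tested. By 2 h in KO cells 3 were higher and 1 lower, and by 4 h again 3 and 1, while in WT cells 2 were higher and 1 lower at 2 h and 3 higher and 0 lower at 4 h. Its median change was 0.16 and 0.12 in KO cells and 0.13 and -0.01 in WT cells, against -0.06 and -0.05, and -0.05 and -0.02, over all tested genes. Cd40, the receptor that acts through NIK, rose by 1.98 at 2 h in KO cells (adjusted p = 3.57e-11) and by 2.28 in WT cells (adjusted p = 4.74e-12), while Map3k14 fell. Nfkb2, the precursor that NIK has processed, rose in KO cells by 0.60 at 2 h and 0.74 at 4 h (adjusted p = 0.000117 and 1.68e-05), and was 0.10 and 0.25 higher in WT cells (adjusted p = 0.506 and 0.0575). Both KO calls on Nfkb2 were lost on the deposited scale (0.15 and 0.58, adjusted p = 0.642 and 0.142). At 0 h Nfkb2 was called lower in KO than in WT cells (-0.46), a call also lost on that scale (adjusted p = 0.553). The difference of its responses between genotypes was not called. Relb, on the same list, was called lower in KO cells at 2 and 4 h (-0.24 and -0.36). Its call at 2 h was lost with trimmed-mean scaling (adjusted p = 0.22) and that at 4 h on the deposited scale (adjusted p = 0.247). Birc2 (cIAP1), part of the complex that degrades NIK, was lower in KO cells by -0.39 averaged over the times (adjusted p = 1.43e-05).

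The list of genes upstream of TAK1 and at its outputs had 13 of 14 genes tested, and 5 were higher and 1 lower at 2 h in KO cells, 5 and 0 at 4 h, against 5 and 2, then 5 and 1, in WT cells. Its medians were 0.13 and 0.11 in KO cells and 0.20 and 0.22 in WT cells, against the medians over all genes given above. Tnfaip3, the deubiquitinase A20 that restrains this pathway, rose by 1.73 at 2 h in KO cells and by 2.01 in WT cells (adjusted p = 9.88e-10 and 1.45e-10). Myd88, the receptor adaptor, rose by 0.43 in KO cells and 0.58 in WT cells at 2 h (adjusted p = 0.00239 and 0.000182), though on the deposited scale the KO value turned to -0.05 and the WT call was lost (0.23, adjusted p = 0.514). Averaged over the times, 0 of the 13 were called between genotypes, where 10.5% of all tested genes were, with a median of 0.01.

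Around TPL2, 3 of 6 listed genes were tested and 1 was called higher at each time in each genotype, with list medians of 0.25 and 0.02 in KO cells and 0.16 and 0.06 in WT cells. It was Map2k1 (MEK1), the kinase between TPL2 and ERK, which gave 9.92 and 9.96, 10.66 and 10.48, and 10.85 and 10.75 at 0, 2 and 4 h on KO arrays, and 9.84 and 9.74, 10.65 and 10.74, and 10.91 and 10.95 on WT arrays. It rose by 0.63 at 2 h and 0.86 at 4 h in KO cells (adjusted p = 1.65e-05 and 6.74e-07) and by 0.90 and 1.14 in WT cells (adjusted p = 2.42e-07 and 2.48e-08). On the deposited scale the KO value at 2 h was 0.22 and missed the threshold (adjusted p = 0.443).

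Of the 8 JNK substrates on their list, 3 were higher and 0 lower at 2 h in KO cells and 1 and 0 at 4 h, against 2 and 1, then 1 and 1, in WT cells, with medians of 0.06 and 0.07, and -0.02 and -0.03. Jun, the AP-1 subunit that JNK phosphorylates, gave 9.19 and 9.18, 9.55 and 9.65, and 10.01 and 10.16 at 0, 2 and 4 h on KO arrays, and 8.84 and 8.98, 9.39 and 9.51, and 9.67 and 9.54 on WT arrays. It rose by 0.41 and 0.90 in KO cells and by 0.53 and 0.69 in WT cells, but on the deposited scale the KO value at 2 h was -0.03 and both WT calls were lost (0.21 and 0.55, adjusted p = 0.542 and 0.195). At 4 h Jun was 0.48 higher in KO cells than in WT cells (adjusted p = 0.00547), with no overlap of the arrays, a call lost on the deposited scale (0.31, adjusted p = 0.965). Bcl2l11 (BIM), a death-promoting target of JNK, rose by 0.77 at 2 h in KO cells and by 0.85 in WT cells (adjusted p = 3.33e-06 and 8.33e-07), and the KO call was lost on the deposited scale (0.36, adjusted p = 0.215).

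Other kinases upstream of JNK were lower in the few cases where they were called against 0 h. Of all tested genes 19.6% were called at 2 h and 18.1% at 4 h in KO cells, and 19.9% and 18.2% in WT cells. Beside those shares the counts are a description of the lists. Of 14 other MAP3 kinases tested of 19 listed, 0 were higher and 3 lower at 2 h in KO cells and 0 and 0 at 4 h, against 0 and 3, then 0 and 1, in WT cells. Their medians were -0.02 and 0.02 in KO cells and -0.12 and -0.07 in WT cells. Map3k1 (MEKK1), a MAP3 kinase upstream of JNK, fell by 0.66 at 2 h in KO cells and by 0.65 in WT cells (adjusted p = 0.00643 and 0.00678). Of 5 tested MAP4 kinases, 1 was lower in every comparison of times and of genotypes: Map4k4, upstream of JNK, changed by -0.26 at 2 h and -1.21 at 4 h in KO cells and by -0.38 and -1.09 in WT cells, and stood -0.43 lower in KO cells averaged over the times (adjusted p = 3.6e-06). Its KO change at 2 h missed the threshold with trimmed-mean scaling (adjusted p = 0.0703), and on the deposited scale so did the differences at 0, 2 and 4 h (adjusted p = 0.506, 0.323 and 0.19) and both steps from 2 to 4 h (adjusted p = 0.1 and 0.241). The medians of the 5 were -0.21 and -0.40 in KO cells and -0.13 and -0.15 in WT cells. Of the 7 genes of JNK3 and the JNK scaffolds, 0 were higher and 1 lower at 2 h in KO cells and 1 and 2 at 4 h, against 0 and 1, then 0 and 2, in WT cells. Among them Arrb2, a scaffold of ASK1 and JNK3, fell by 0.99 at 2 h in KO cells and by 0.88 in WT cells (adjusted p = 4.85e-06 and 1.69e-05).

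Of 7 phosphatases directed at JNK, 2 were higher and 0 lower at 2 h in KO cells and 1 and 0 at 4 h, against 0 and 0, then 0 and 1, in WT cells. Their medians were -0.04 and -0.12 in KO cells and 0.00 and -0.06 in WT cells. Dusp1, a phosphatase of JNK and p38, was called against 0 h in neither genotype and was lower in KO cells by -0.49 averaged over the times (adjusted p = 7.61e-07). Its KO arrays lay at 10.67 to 10.85 and its WT arrays at 11.16 to 11.37, without overlap. Of 5 regulators of ASK1, 0 were called at 2 h and 2 higher and 1 lower at 4 h in KO cells, against 1 higher and 0 lower at each time in WT cells. Glrx, a glutaredoxin that binds ASK1, was higher in KO cells by 0.75 averaged over the times (adjusted p = 6.61e-07), and the list's median there was 0.19, against 0.03 over all genes. Of the 8 genes of the p38 arm, 2 were higher and 0 lower at 2 h in KO cells and 1 and 0 at 4 h, against 2 and 1, then 0 and 1, in WT cells. Averaged over the times, 2 of the 8 (Mapk14 and Mapk12, which encodes p38γ) were called higher in KO cells, and both calls were lost on the deposited scale. No gene of these lists was called in the difference of responses.

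On the deposited scale 10 of the 23 list calls at 2 h in KO cells and 14 of 23 in WT cells held, and at 4 h 6 of 20 and 8 of 19. From 2 to 4 h 3 of 13 held in KO cells and 0 of 11 in WT cells. Between genotypes 0 of 6 held at 0 h, 1 of 5 at 2 h (Dusp1), 0 of 6 at 4 h and 8 of 12 in the average over the times. The value of 5 genes turned there at 2 h in KO cells (Dusp16, Jun, Traf6, Myd88 and Peli1) and of 1 in WT cells (Glrx), and that of Txnip turned in the averaged genotype difference. With trimmed-mean scaling no called gene of these lists turned in any comparison.

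Among the 932 tested genes whose group means spanned at least 1 on the log2 scale, those most like Map3k14 over the 12 arrays were Pmaip1 (r = 0.993), Adam19 (0.985), Mxd1 (0.979), Sirt1 (0.976) and Il7r (0.975). Those most like Map3k8 were Ampd3 (0.988), Rcsd1 (0.988), Sema7a (0.987), Tmem243 (0.986) and Igsf9 (0.985). The points share the 6 groups and the ranking is a description. Map3k8 and Map3k14 themselves ran opposite to each other over the 12 arrays (r = -0.914).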

How the data were processed

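RNA of the 12 samples was hybridised to 1 Affymetrix mouse 3' expression array each. The deposited table holds linear intensity values, 1 per probe set and array, made by the authors with MAS5 per the submitters' processing notes. The sources used here give no scaling target, version or detection calls. Trimmed means (2% off each end) ran from 66.6 to 119, a 1.79-fold range, so the linear values were quantile-normalized. Tests used log2(value + 16), which understates fold changes, most of all those of low genes.

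The platform annotation gave 1 symbol to 34958 of the 45101 probe sets, several to 932 and none to 9211, and those with 1 symbol were named. The probe set of highest mean stood for each gene, and 12792 of 18194 genes, with a mean at or above the 40th percentile over probe sets, were kept. All arrays entered 1 limma 3.58.1 model in R 4.3.3 with a mean per group (lmFit, eBayes with trend), from which 12 two-sided comparisons were drawn, with Benjamini-Hochberg adjustment over the tested genes. Every probe set above the percentile (27061) was fitted in the same way. Errors after ± are standard errors. The gene test was also tried on simulated log2 values, and the outcome is not given here.

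Members, pathway lists and alternatives were chosen with earlier results of these data known. Genes named are the members, Mapk14, up to 3 called genes of smallest p per list and comparison or ones whose role beside a member is described, and the 5 genes most like each of the 2 members of widest range. The alternatives tried were values as deposited or scaled by trimmed means, a pseudocount of 1 or 64, no filter or a 60th percentile filter, the mean of all probe sets, probe sets without suffixed types, each probe set as a feature, no trend, only the groups compared, the array letter as a block, other thresholds and each array left out. Nothing in the labels says that arrays A and B came from separate animals or cultures, so p-values measure the spread between these arrays, which may be technical. Signal over background and the number of arrays limit the precision.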

Additional observations from a re-analysis of the deposited data

How the results depend on the processing

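No member's called change reversed under any alternative. The calls on Map3k14 and Map3k8 against 0 h held under all alternatives, and so did that on Map3k14 averaged over the times except with a log2 change of at least 1 required. From 2 to 4 h in KO cells the 2 members called became 1 on the deposited scale, with no filter, the mean of all probe sets, each probe set as a feature, no trend or a log2 change of at least 1. From 2 to 4 h in WT cells the 4 became 1 on the deposited scale, 2 with no filter, the mean of all probe sets, each probe set as a feature or no trend, and 0 with the log2 limit. By 2 h in WT cells the 5 became 3 on the deposited scale, where Map3k5, Mapk8 and Tab2 were lost and Tab1 was gained, and 2 with the log2 limit. The WT rise of Map3k5 by 2 h was also lost with trimmed-mean scaling or only the groups compared, and that of Tab2 with no trend. By 2 h in KO cells the Mapk8 call was lost on the deposited scale (0.01, adjusted p = 0.976), where Map2k4 was gained. It was also lost with trimmed-mean scaling, no filter, each probe set as a feature or no trend. By 4 h the Tab2 call was lost on the deposited scale in both genotypes, and in KO cells also with no trend. KO minus WT at 0 h gained 1 call (Map3k14) with a pseudocount of 64, the mean of all probe sets or a threshold of 0.1. At 2 h the 1 call became 0 on the deposited scale, with no trend and with the log2 limit, and at 4 h the 1 became 0 on the deposited scale and with the log2 limit. Averaged over the times the 2 became 1 on the deposited scale and 0 with the log2 limit. The cause was not tested.

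With each array left out in turn, the members called ranged from 2 to 3 by 2 h and by 4 h in KO cells, from 1 to 2 between 2 and 4 h in KO cells, from 3 to 5 by 2 h in WT cells and from 1 to 4 between 2 and 4 h in WT cells. They stayed at 3 by 4 h in WT cells, 0 for KO minus WT at 0 h, 1 at 4 h, 2 in the average and 0 for both differences of responses, and ranged from 0 to 1 for KO minus WT at 2 h. The letters A and B did not pair the arrays (deviations of same-letter arrays correlated with r of -0.04 to 0.10, above 0.1 for 1 of 15 pairs of groups). With the letter as a replicate block the members called were 3 and 3 against 0 h in KO cells and 5 and 3 in WT cells, as without it. A fit of only the groups compared is the same as the one used for the averaged difference and gave no value of its own.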
